A study of Bos taurus with 30 samples.

Results

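Blood-borne immune cells of cattle were compared between animals given prednisolone and control animals, as a difference that holds over 2 samplings. All 30 arrays of the series were used. They hold 8 prednisolone animals and 7 controls, each measured once at T1 and once at T2, and the 2 log2 values of an animal were averaged into 1 value per gene before treatment was compared over the 15 animals. Of 3269 genes named on the array, 2374 passed the filter on dim and missing values and were tested. Each gene's difference was also fitted at T1 and at T2 apart, so that genes with the same sign at both times could be told from genes in which 1 sampling carries the mean.

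The prednisolone animals (Bos taurus, labelled as cows in the series title) had received prednisolone by mouth at 30 mg per head daily for 35 days. The control animals are labelled CONTROL, with no vehicle named. The cell type label is lymphocytes and the samples are described as coming from a slaughterhouse. The labels give neither age nor breed, and the timing of T1 and T2 against the dosing and the way the lymphocytes were separated are unstated in them. The animals are separate by number, with no batch label, so p-values set the group difference against the spread between these animals. Every control has a lower number than every prednisolone animal, so anything that followed the numbers cannot be told apart from treatment.

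Prednisolone is a synthetic glucocorticoid. It binds the glucocorticoid receptor, a transcription factor held by heat shock chaperones in the cytoplasm, which then moves to the nucleus, induces genes such as feedback inhibitors of its own signalling and lowers many cytokine genes, in part through NF-kB and AP-1. In cattle and other mammals glucocorticoids also change which white blood cells circulate. In bulk RNA of this kind, fewer cells of a type and less RNA per cell cannot be told apart.

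Between 34506 and 38801 of 44407 features had a value per array, and precision is limited by the number of arrays. Along the leading principal component of 2181 genes (21.9% of the variance), the 8 prednisolone arrays lay between 8.81 and 13.83 at T2, and the control arrays of both times lay between -5.33 and 3.97. At T1 the prednisolone arrays lay between -22.16 and -3.3, and animals 28 and 32 stood apart there at -21.93 and -22.16, against -9.06 and above in the other prednisolone animals. Results are therefore also given without these 2 animals. Markers of T cells (CD3E, CD3D, CD3G, CD247) and of B cells (CD79A) had a value on every array, as the label requires, and so did CD14 of monocytes and HBB of red cells.

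On the animals' means, 65 of 2374 genes passed an adjusted p of 0.05, which is 2.74% of the genes tested. Of these, 33 were higher in the prednisolone animals (1.39%) and 32 were lower (1.35%), while 471 genes (19.8%) had an unadjusted p under 0.05. The differences were small. Their sizes lay between 0.18 and 1.02 on the log2 scale with a median of 0.36, and GNAT2 was the 1 gene past 2-fold. The median difference over all genes tested was 0.043. In 64 of the 65 genes all 8 prednisolone animals were to the same side of the control mean, which every treated animal with a value was in 442 of all genes tested (18.6%). For 23 of the 65 the animal means of the groups did not overlap, against 29 of all genes (1.22%). The 65 were picked by a test on these same means, so both counts are largely built into passing and add no support. The genes that rose included the sterol enzyme CYP51A1, the lymphocyte adaptor TRAF3IP3, the immediate early gene FOS and the T cell surface protein CD2. Those that fell included the translation helicase EIF4A1, the pseudokinase TRIB2, the NF-kB kinase subunit CHUK and the cytokine IL2.

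The count rested on the animals included. It was 20 without animals 28 and 32 (13 higher and 7 lower), and 14 of the 65 genes were among them. With 1 animal left out it was 23 without prednisolone animal 29, 31 without 30, 35 without 26, and 38 without 27 or without 28. Among the controls it was 24 without animal 22, 29 without 18, 37 without 24 and 38 without 23. No called gene changed its sign under any of the 27 other settings tried. These settings reuse the arrays on which the genes were picked, so a kept sign is largely built in and adds no support.

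Of the 65 genes, 57 had the same sign at both times, 30 of them higher and 27 lower, and 8 had opposite signs. Over all genes tested, 1062 (44.7%) had the same sign and 1312 had opposite signs. Because the mean of both times enters the test, sharing a sign is partly built into passing it. At T2 449 genes passed on their own (18.9%), 265 higher (11.2%) and 184 lower (7.75%), and 54 of the 65 were among them. The groups did not overlap at T2 in 27 of the 65, against 98 of all genes (4.13%). The T2 values enter the mean by which the 65 were picked. At T1 8 genes passed on their own (0.337%), and 5 of the 65 were among them. The T1 count was 235 with the animal as a random block over both times, 110 without control animal 17, and 0 without control animal 21, without prednisolone animal 28, 31 or 32, or without 28 and 32 together. With the same sign and an unadjusted p under 0.05 at each time, 22 of the 65 were found, 13 higher and 9 lower. This pattern held for 50 of all genes tested (2.11%), 28 higher (1.18%) and 22 lower (0.927%), whereas 104 genes (4.38%) had an unadjusted p under 0.05 at both times with opposite signs. The plot of T2 against T1 differences shows the 22 genes to the lower left and upper right of the origin.

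**Figure D1:**
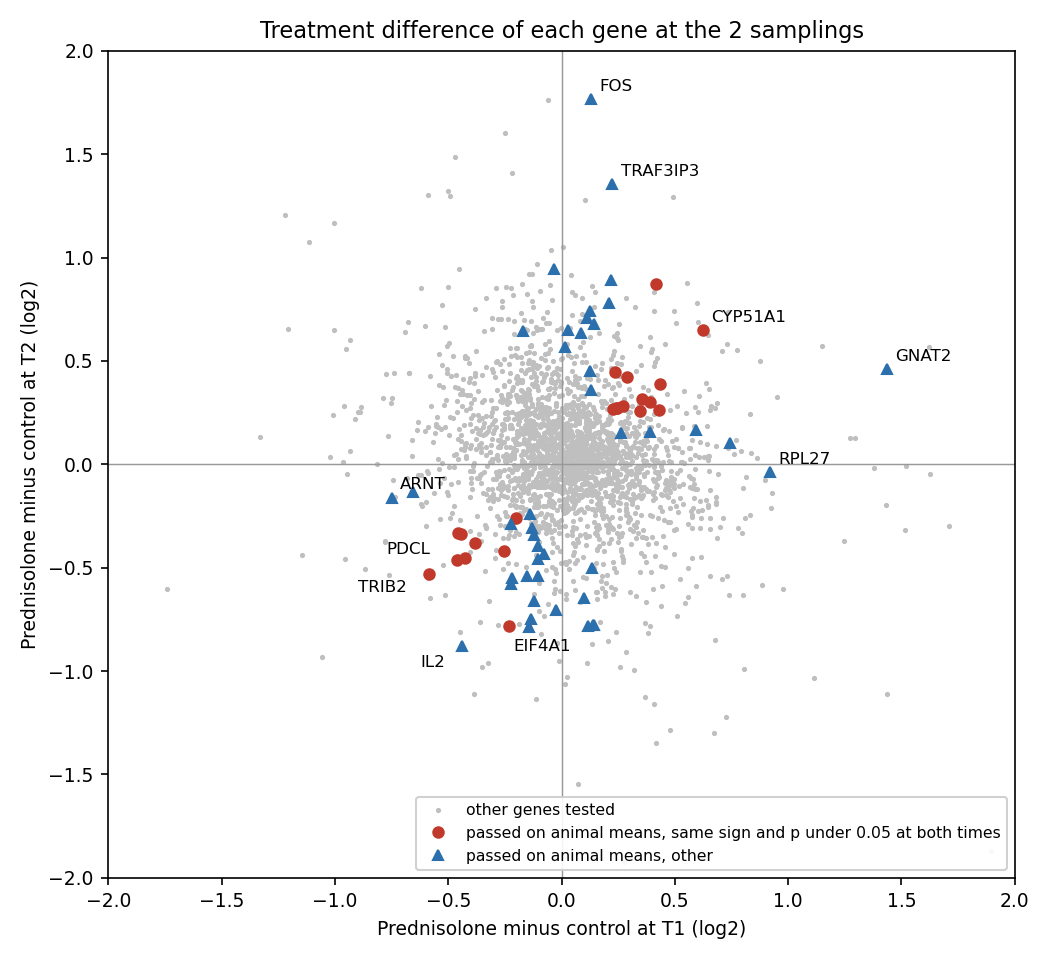
Difference of each of the 2374 genes tested (prednisolone minus control, log2 intensity) at T1 on the x axis and at T2 on the y axis. Red circles are the 22 genes that passed on animal means with the same sign and an unadjusted p under 0.05 at both times, blue triangles the other 43 genes that passed, grey points all others; 5 genes lie outside the axes, which run to 2.0.

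Of the 13 shared rises, 5 genes encode enzymes, a transporter subunit or a cluster assembly factor. CYP51A1, the lanosterol demethylase of cholesterol synthesis, lay between 7.91 and 8.29 (median 8.16) in the prednisolone animals, against 7.22 and 7.87 (median 7.45) in the controls on the log2 scale of animal means. The groups did not overlap. It rose by 0.64 log2 units (SE 0.0998, adjusted p = 0.0044), which is 1.55-fold, with differences of 0.62 at T1 (unadjusted p = 0.000558) and 0.65 at T2 (unadjusted p = 8.94e-05). At T2 every prednisolone animal was above every control, and at T1 the lowest prednisolone animal (7.83) lay just under the highest control (7.86). SLC3A1, the heavy subunit of an amino acid transporter, lay between 9.66 and 9.94 (median 9.85) in the prednisolone animals, against 9.20 and 9.65 (median 9.57) in the controls, again without overlap. It rose by 0.36 (SE 0.0735, adjusted p = 0.0242), with differences of 0.29 at T1 and 0.42 at T2. MYG1, a mitochondrial and nuclear exonuclease, lay between 9.54 and 9.76 (median 9.63) in the prednisolone animals, against 9.19 and 9.48 (median 9.25) in the controls. Its groups did not overlap on animal means but did at each time. It rose by 0.35 (SE 0.0532, adjusted p = 0.00397), with differences of 0.43 at T1 (unadjusted p = 0.000714) and 0.26 at T2 (unadjusted p = 0.0226). PREP, the prolyl endopeptidase that cuts short peptides, lay between 8.85 and 9.10 (median 8.96) in the prednisolone animals, against 8.55 and 8.87 (median 8.65) in the controls. The lowest prednisolone animal lay just under the highest control. PREP rose by 0.30 (SE 0.0569, adjusted p = 0.0152), with 0.35 at T1 and 0.26 at T2. CIAO1, which helps deliver iron-sulfur clusters to cytosolic proteins, lay between 9.76 and 9.94 (median 9.86) in the prednisolone animals, against 9.51 and 9.81 (median 9.57) in the controls. Control animal 23, at 9.81, was the only control inside the prednisolone range, and CIAO1 rose by 0.26 (SE 0.054, adjusted p = 0.0246). With the mean of all 4 of its features instead of the brighter 2, its difference was 0.029 (adjusted p = 0.94), so its probes did not agree. Without animals 28 and 32, CYP51A1 had an adjusted p of 0.0218 and MYG1 of 0.0176, while SLC3A1 (0.0502), PREP (0.0502) and CIAO1 (0.0537) did not pass. The highest adjusted p with 1 animal left out was 0.056 for CIAO1 without control animal 22; 0.0525 for SLC3A1 without prednisolone animal 29; CYP51A1, MYG1 and PREP passed in all 15 such fits.

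A further 3 of the 13 encode the signalling proteins MKNK1 and RIC8A and the surface receptor CD2. MKNK1, a kinase that phosphorylates the cap-binding factor eIF4E downstream of MAP kinases, lay between 11.37 and 11.76 (median 11.66) in the prednisolone animals, against 10.99 and 11.48 (median 11.23) in the controls. Only the lowest prednisolone animal, at 11.37, lay inside the control range. It rose by 0.41 log2 units (SE 0.0842, adjusted p = 0.0233), with differences of 0.43 at T1 (unadjusted p = 0.000639) and 0.39 at T2 (unadjusted p = 0.0017). RIC8A, a chaperone and exchange factor for G protein alpha subunits, lay between 9.68 and 10.15 (median 9.81) in the prednisolone animals, against 9.27 and 9.72 (median 9.49) in the controls. 1 control lay inside the prednisolone range. RIC8A rose by 0.35 (SE 0.0872, adjusted p = 0.0465), with 0.39 at T1 and 0.30 at T2. CD2, an adhesion receptor of T cells and natural killer cells, lay between 9.82 and 10.11 (median 10.05) in the prednisolone animals, against 9.43 and 9.89 (median 9.68) in the controls. All 8 prednisolone animals were above the control mean at each time, though the ranges overlapped. It rose by 0.34 (SE 0.0812, adjusted p = 0.0413), with differences of 0.35 at T1 (unadjusted p = 0.0111) and 0.32 at T2 (unadjusted p = 0.00593). Other T cell markers measured did not pass: CD3E differed by 0.46 with an adjusted p of 0.121, and CD3G by -0.0025 with one of 0.998. Of the other markers, CD14 differed by 1.44 at T1 and -1.11 at T2, and its part in these rises was not tested.

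The other 5 shared rises encode 2 nuclear proteins, a trafficking protein and 2 proteins with uncharacterised symbols. MED27, a subunit of the Mediator complex, lay between 12.22 and 12.33 (mean 12.26) in the prednisolone animals, against 11.82 and 12.24 (mean 11.99) in the controls. The prednisolone values were tight, and 1 control lay among them. It rose by 0.28 (SE 0.059, adjusted p = 0.0257), with 0.27 at T1 and 0.28 at T2. VPS72, a subunit of the complexes that exchange histone H2A.Z, lay between 11.60 and 11.84 (median 11.71) in the prednisolone animals, against 11.30 and 11.65 (median 11.48) in the controls. Its ranges overlapped slightly. It rose by 0.25 (SE 0.0594, adjusted p = 0.0413), with 0.23 at T1 and 0.27 at T2. USO1, a tether for vesicles between the endoplasmic reticulum and the Golgi, lay between 11.27 and 11.54 (median 11.43) in the prednisolone animals, against 10.98 and 11.30 (median 11.14) in the controls. Here too the lowest prednisolone animal lay inside the control range. USO1 rose by 0.26 (SE 0.0582, adjusted p = 0.0321), with 0.24 at T1 and 0.27 at T2. Of the 2 genes with uncharacterised symbols, LOC509356 lay between 6.74 and 7.46 (median 7.06) in the prednisolone animals, against 5.87 and 6.57 (median 6.53) in the controls. The groups did not overlap, and control animal 17 was far below the other controls. It rose by 0.64 (SE 0.127, adjusted p = 0.0197), and its difference of 0.87 at T2 was larger than that of 0.42 at T1 (adjusted p of the difference = 0.0466). LOC511229 lay between 7.81 and 8.05 (median 7.91) in the prednisolone animals, against 7.23 and 7.76 (median 7.62) in the controls, without overlap, and rose by 0.34 (SE 0.0779, adjusted p = 0.0357), with 0.23 at T1 and 0.45 at T2. With 1 animal left out, the highest adjusted p-values among the signalling, nuclear and trafficking genes were 0.093 for RIC8A, 0.0783 for CD2, 0.056 for MED27, 0.0699 for USO1 and 0.0777 for LOC511229 without control animal 22; 0.0787 for VPS72 without prednisolone animal 29. MKNK1 and LOC509356 passed in all 15 such fits, and without animals 28 and 32 none of these 8 genes did, at adjusted p-values of 0.0514 to 0.112.

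**Figure D2:**
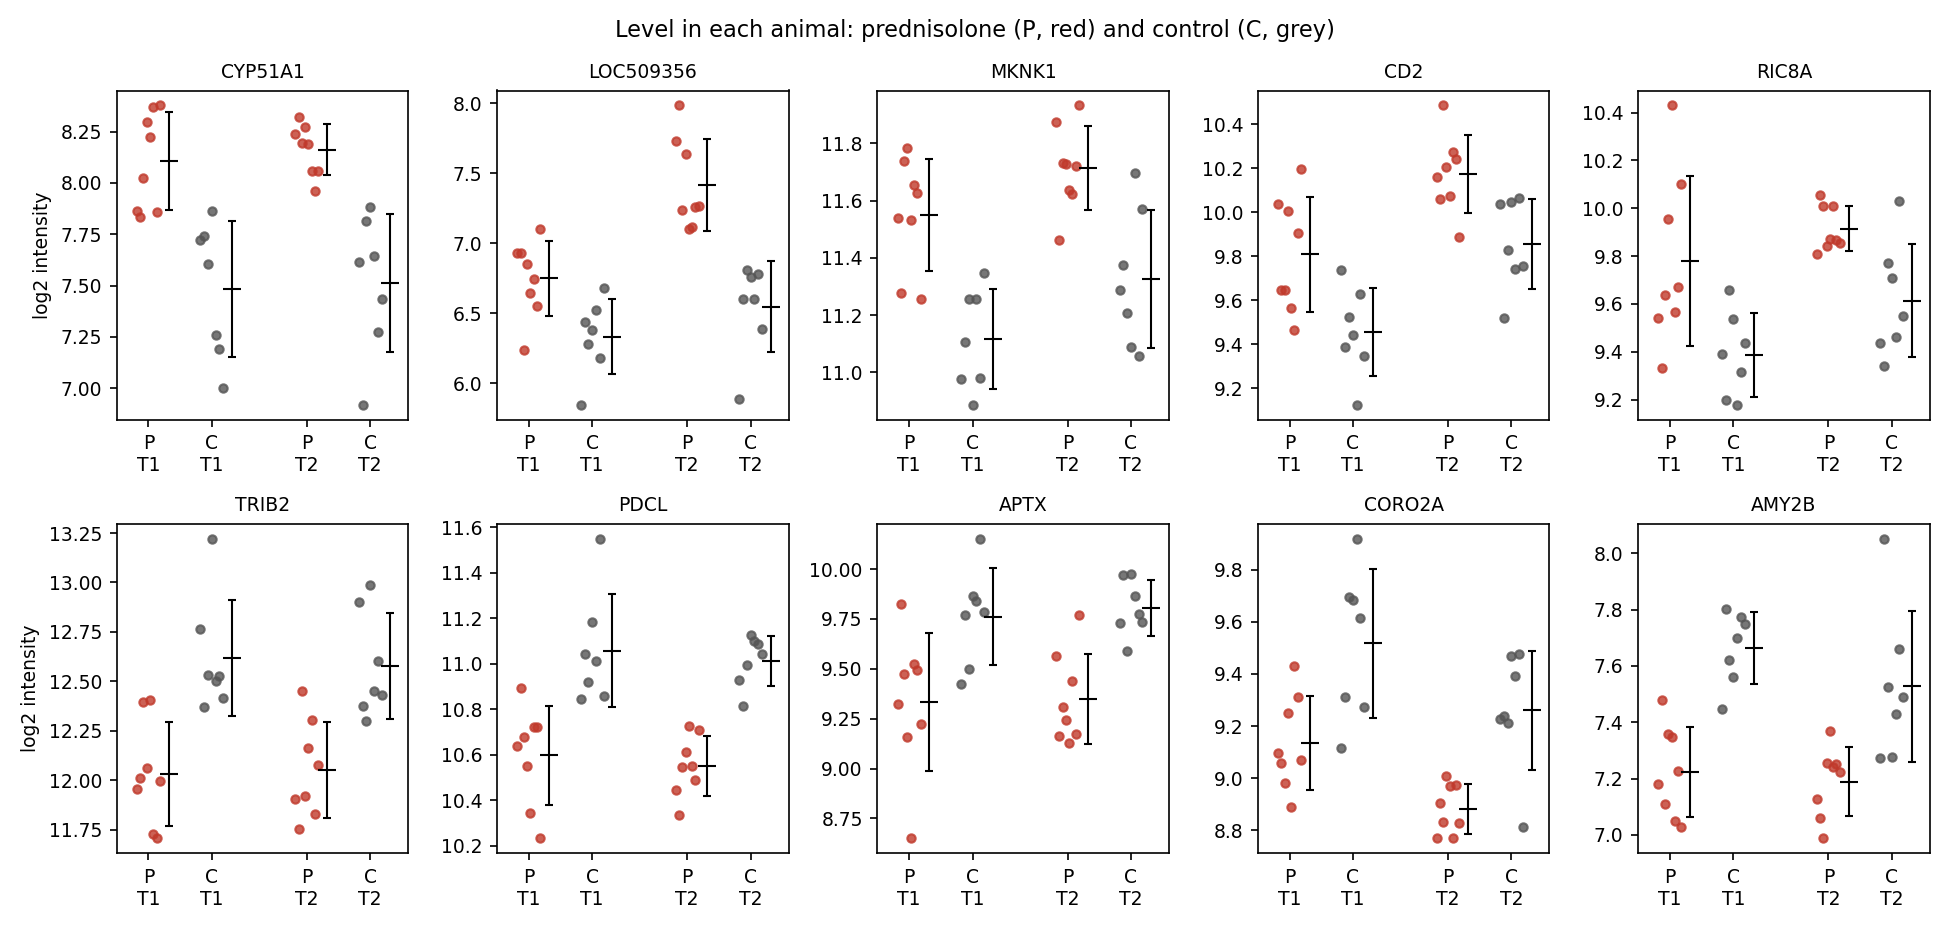
Log2 intensity (y axis) of 10 genes in each animal, prednisolone (P, red) left of control (C, grey) at T1 and at T2; black marks are the mean ± SD of 8 prednisolone and 7 control animals. The genes are those of the 22 with the largest smaller-of-the-2-times difference, 5 higher and 5 lower; CYP51A1 and PDCL separate the groups fully at T2 and nearly so at T1.

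Of the 9 shared falls, 6 genes encode a translation helicase, proteins of signalling or ubiquitin transfer, and a coronin. EIF4A1, the RNA helicase that unwinds mRNA leaders for the ribosome, had the smallest p of all genes tested and lay between 14.21 and 14.48 (median 14.35) in the prednisolone animals, against 14.71 and 14.92 (median 14.90) in the controls. The groups were far apart. EIF4A1 fell by 0.51 log2 units (SE 0.0559, adjusted p = 0.000346). Its difference was unequal at the 2 times, -0.78 at T2 with no overlap and -0.23 at T1 with overlap (adjusted p of the difference = 0.0186). PDCL, a phosducin-like protein that helps assemble G protein beta-gamma dimers, lay between 10.47 and 10.64 (median 10.59) in the prednisolone animals, against 10.88 and 11.32 (median 10.96) in the controls. No animal overlapped. PDCL fell by 0.46 log2 units (SE 0.0645, adjusted p = 0.00226), with differences of -0.46 at T1 (unadjusted p = 0.00157) and -0.46 at T2 (unadjusted p = 1.07e-05). TRIB2, a pseudokinase that steers substrates to a ubiquitin ligase, lay between 11.77 and 12.42 (mean 12.04) in the prednisolone animals, against 12.37 and 13.10 (mean 12.60) in the controls. The highest prednisolone animal lay inside the control range. TRIB2 fell by 0.56 (SE 0.121, adjusted p = 0.0265), with -0.59 at T1 (unadjusted p = 0.00077) and -0.53 at T2 (unadjusted p = 0.000851). CHUK, the alpha subunit of the kinase that releases NF-kB, lay between 12.34 and 12.55 (median 12.46) in the prednisolone animals, against 12.53 and 12.85 (median 12.68) in the controls, with slight overlap. It fell by 0.23 (SE 0.0557, adjusted p = 0.0413), with -0.20 at T1 and -0.26 at T2. UBE2B, a ubiquitin-conjugating enzyme of DNA damage tolerance, lay between 9.72 and 9.94 (median 9.91) in the prednisolone animals, against 9.96 and 10.49 (median 10.19) in the controls. The groups did not overlap. UBE2B fell by 0.34 (SE 0.0723, adjusted p = 0.0257), with -0.26 at T1 and -0.42 at T2. CORO2A, an actin-binding coronin found in nuclear corepressor complexes, lay between 8.91 and 9.14 (median 8.96) in the prednisolone animals, against 9.04 and 9.65 (median 9.45) in the controls. Most controls were above all prednisolone animals, and the lowest control was not. It fell by 0.38 (SE 0.0893, adjusted p = 0.0412), with -0.38 at T1 and -0.38 at T2.

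A further 3 proteins, of DNA repair and metabolism, were lower at both times. APTX, which repairs abortive DNA ligation ends, lay between 8.89 and 9.50 (median 9.42) in the prednisolone animals, against 9.54 and 9.96 (median 9.85) in the controls. The groups did not overlap. It fell by 0.44 (SE 0.0973, adjusted p = 0.0277), with -0.43 at T1 and -0.46 at T2. GCSH, the lipoyl-carrying H protein of the glycine cleavage system, lay between 9.53 and 10.03 (median 9.71) in the prednisolone animals, against 9.92 and 10.34 (median 10.15) in the controls. The highest prednisolone animal lay inside the control range. GCSH fell by 0.39 (SE 0.0791, adjusted p = 0.0218), with -0.46 at T1 (unadjusted p = 0.000908) and -0.33 at T2 (unadjusted p = 0.00293). AMY2B, an amylase, lay between 7.05 and 7.36 (median 7.20) in the prednisolone animals, against 7.36 and 7.93 (median 7.57) in the controls. Its groups did not overlap on animal means. It fell by 0.39 (SE 0.0799, adjusted p = 0.0233), and it was among the 8 genes that passed in the fit of T1 (difference -0.44, adjusted p = 0.04) and passed in that of T2 too (-0.34, adjusted p = 0.0353). With 1 animal left out, the highest adjusted p-values among the 9 shared falls were 0.0783 for CORO2A and 0.0632 for APTX without control animal 22, 0.0794 for CHUK without control animal 23, 0.0559 for UBE2B without prednisolone animal 29, and 0.0518 for TRIB2 without prednisolone animal 30; EIF4A1, PDCL, GCSH and AMY2B passed in all 15 such fits. Without animals 28 and 32, EIF4A1 had an adjusted p of 0.00336 and PDCL of 0.0176, and the other 7 did not pass (0.0502 to 0.066).

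The 22 genes were chosen for a difference of the same sign with a small p at both times, which favours like sizes at the 2 times, so their sizes are given as a description. The 13 that rose had a median difference of 0.35 at T1 and 0.30 at T2, and the 9 that fell had a median of -0.43 at T1 and -0.42 at T2. EIF4A1 and LOC509356 still had an unequal difference by the test of T2 minus T1. Over all 2374 genes that test passed for 621 (26.2%), and nothing about the 22 is read from their lower count. No gene of any kind tested separated the groups fully at both T1 and T2 (0.0%). Without animals 28 and 32 all 22 genes kept their sign at both times, 17 kept an unadjusted p under 0.05 at both, and 3 of those also passed on animal means. When animals were left out in turn, the number of the 22 that kept both the pattern and the call was 9 without control animal 22, 11 without prednisolone animal 29, 13 without 28 or without 30, and 14 without 26 or without control animal 18, and 15 to 20 in the other 9 fits. It was 5 with quantile normalization over all features and 11 with the brightest feature alone.

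In 35 of the 65 genes the p at T2 alone was under 0.05, and several of the largest differences were of that kind. A p under 0.05 at 1 time alone does not show that the differences were unequal. The test of T2 minus T1 passed for 30 of the 65. FOS, a subunit of the AP-1 transcription factor, lay between 12.35 and 13.96 (median 13.12) in the prednisolone animals, against 11.82 and 12.63 (median 12.17) in the controls on animal means and rose by 0.95 log2 units (SE 0.202, adjusted p = 0.0257). At T1 the groups overlapped, with a difference of 0.13. At T2 it lay between 13.26 and 14.35 (median 14.02) in the prednisolone animals, against 11.96 and 12.42 (median 12.17) in the controls, a difference of 1.77 without overlap. The test of unequal differences gave an adjusted p of 0.000156. TRAF3IP3, an adaptor of lymphocyte survival and Golgi-linked signalling, lay between 12.58 and 13.01 (median 12.84) in the prednisolone animals, against 11.62 and 12.43 (median 11.93) in the controls. No animal means overlapped. It rose by 0.79 (SE 0.113, adjusted p = 0.00229), with 0.22 at T1 and 1.35 at T2. NPFF, the gene of a neuropeptide, lay between 7.09 and 7.46 (median 7.24) in the prednisolone animals, against 6.52 and 6.91 (median 6.84) in the controls, without overlap. It rose by 0.49 (SE 0.0787, adjusted p = 0.0044), with 0.21 at T1 and 0.78 at T2. RBM14, an RNA-binding transcriptional coactivator, lay between 10.53 and 11.08 (median 10.74) in the prednisolone animals, against 10.06 and 10.66 (median 10.26) in the controls. The ranges overlapped slightly, and it rose by 0.46 (SE 0.109, adjusted p = 0.0413), with -0.034 at T1 and 0.95 at T2. HDHD3 lay between 8.14 and 9.06 (median 8.71) in the prednisolone animals, against 7.73 and 8.37 (median 8.20) in the controls, with overlap, and rose by 0.56 (SE 0.131, adjusted p = 0.0413), with 0.22 at T1 and 0.89 at T2. The highest adjusted p with 1 animal left out was 0.056 for FOS without control animal 22; 0.0787 for RBM14 and 0.078 for HDHD3 without prednisolone animal 29, while TRAF3IP3 and NPFF passed in all 15.

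Falls with an unadjusted p under 0.05 at T2 alone included IL2, the growth factor that activated T cells make. IL2 was dim and lay between 3.66 and 4.72 (median 4.29) in the prednisolone animals, against 4.64 and 5.29 (median 4.98) in the controls (n = 6). All 8 prednisolone animals were below the control mean, and 3 of them lay above the lowest control. It fell by 0.65 log2 units (SE 0.162, adjusted p = 0.0465), with differences of -0.44 at T1 (unadjusted p = 0.132) and -0.88 at T2 (unadjusted p = 0.000138). The test of unequal differences did not pass for IL2. FBXO8, an F-box protein of ubiquitin ligases, lay between 9.50 and 10.03 (median 9.89) in the prednisolone animals, against 10.03 and 10.51 (median 10.42) in the controls, with the ranges meeting at their ends. It fell by 0.47 (SE 0.0981, adjusted p = 0.0253), with -0.14 at T1 and -0.79 at T2. LOC515169 lay between 10.84 and 11.60 (median 11.38) in the prednisolone animals, against 11.56 and 11.92 (median 11.76) in the controls and fell by 0.44 (SE 0.105, adjusted p = 0.0413), with -0.13 at T1 and -0.75 at T2. The highest prednisolone animal lay just above the lowest control. With 1 animal left out, the highest adjusted p was 0.056 for FBXO8 and 0.0783 for LOC515169 without control animal 22; 0.0911 for IL2 without prednisolone animal 29.

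Among the smaller rises with an unadjusted p under 0.05 at T2 alone were the splicing protein TXNL4B, by 0.43 (SE 0.059, adjusted p = 0.00226), the mitochondrial pseudouridine synthase RPUSD3, by 0.41 (SE 0.0828, adjusted p = 0.0218), and the lymphocyte co-receptor SLAMF1, by 0.41 (SE 0.0775, adjusted p = 0.0152). All 3 separated the groups on animal means and passed in all 15 leave-one-out fits. The test of unequal differences did not pass for DAG1 or ING4, named next. The dystroglycan gene DAG1 rose by 0.36, the proteasome lid subunit PSMD7 by 0.34, the mitochondrial prohibitin PHB1 by 0.29, the chromatin reader ING4 by 0.25 and the uncharacterised LOC512323 by 0.29, at adjusted p-values of 0.0265 to 0.0487. Each of these 5 lost its call with some animal left out, with the highest adjusted p at 0.0668 for PSMD7, 0.0907 for PHB1 and 0.0947 for LOC512323 without control animal 22, 0.0868 for DAG1 without control animal 23, and 0.0574 for ING4 without prednisolone animal 29.

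The smaller falls with an unadjusted p under 0.05 at T2 alone are given by their differences. The test of unequal differences did not pass for TFB2M, MRPS9, SP2, ZFX, LAMTOR5, RBP3, TEKT2 or C15H11orf58. The Golgi SNARE protein GOSR1 fell by 0.35 (SE 0.0626, adjusted p = 0.0138) and passed in all 15 leave-one-out fits. ARMC1 fell by 0.39 (SE 0.0723, adjusted p = 0.0138) and passed in all 15 too, though with the mean of all 4 of its features its adjusted p was 0.14. Mitochondrial genes were the transcription factor TFB2M, which fell by 0.38, and the small ribosomal subunit protein MRPS9, which fell by 0.25. Zinc finger transcription factors were SP2, which fell by 0.32, ZSCAN21, which fell by 0.28, and ZFX, which fell by 0.19. The lipid enzyme PAFAH2 fell by 0.37, the membrane protein SERINC1 by 0.26, the Ragulator subunit LAMTOR5 by 0.22, the retinoid carrier RBP3 by 0.23, the ciliary tektin TEKT2 by 0.40 and C15H11orf58 by 0.26. Adjusted p-values of these 11 genes lay between 0.0246 and 0.0499, and with 1 animal left out the highest was 0.0861 for LAMTOR5 without control animal 18, 0.0783 for TFB2M, 0.056 for SP2, 0.0626 for ZSCAN21, 0.0777 for PAFAH2 and 0.0855 for SERINC1 without control animal 22, 0.0787 for ZFX, 0.0574 for RBP3, 0.0787 for TEKT2 and 0.0987 for C15H11orf58 without prednisolone animal 29, and 0.0784 for MRPS9 without prednisolone animal 30.

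In 8 of the 65 genes the p at T1 alone was under 0.05. GNAT2, the cone transducin alpha subunit, had the largest difference and was dim, with values between 4.01 and 5.06 (median 4.84) in the prednisolone animals (n = 6), against 2.88 and 4.16 (median 3.88) in the controls (n = 6). It rose by 1.02 log2 units (SE 0.223, adjusted p = 0.0387), which is 2.03-fold, and was the 1 called gene whose groups did not overlap at T1 (0.295% of all genes), with 1.43 at T1 and 0.46 at T2. Its adjusted p was 0.0908 with the mean of its 2 features in place of the brighter one. RPL27, a protein of the large ribosomal subunit, lay between 9.57 and 9.97 (median 9.71) in the prednisolone animals, against 9.15 and 9.56 (median 9.28) in the controls. No animal means overlapped, and it rose by 0.44 (SE 0.0728, adjusted p = 0.00585), with 0.92 at T1 and -0.04 at T2. ARNT, which pairs with hypoxia factors and the dioxin receptor, lay between 8.13 and 8.54 (median 8.37) in the prednisolone animals, against 8.54 and 9.13 (median 8.79) in the controls. The groups met without crossing. ARNT fell by 0.46 (SE 0.0835, adjusted p = 0.0138), with -0.75 at T1 and -0.16 at T2. HMGB2, a DNA-bending chromatin protein abundant in dividing cells, averaged 13.77 ± 0.18 in the prednisolone animals (SD, n = 8) and 14.16 ± 0.09 in the controls (SD, n = 7), without overlap, and fell by 0.40 (SE 0.0773, adjusted p = 0.0197), with -0.66 at T1 and -0.13 at T2. Smaller rises of this kind were the ATP synthase subunit ATP5F1D, by 0.38 (SE 0.0832, adjusted p = 0.0277), the cytochrome b561 family gene CYB561D2, by 0.42 (SE 0.104, adjusted p = 0.0423), TRABD, by 0.27 (SE 0.0695, adjusted p = 0.0476), and the mitochondrial oxoglutarate carrier SLC25A11, by 0.21 (SE 0.0499, adjusted p = 0.0413). With 1 animal left out the highest adjusted p was 0.0655 for ATP5F1D and 0.0783 for SLC25A11 without control animal 22, 0.0861 for CYB561D2 without control animal 23, 0.0913 for TRABD without control animal 24, and 0.078 for GNAT2 without prednisolone animal 29, while RPL27, ARNT and HMGB2 passed in all 15.

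The 8 genes with opposite signs were those whose larger difference, at 1 time, set the sign of the mean. Besides RPL27 and RBM14 they were the chromatin-binding coactivator PSIP1, which rose, and 5 genes that fell: the methylosome subunit WDR77, the antiproliferative gene BTG3, URGCP, the BRCA1-A complex subunit UIMC1, and RHEB, the GTPase that activates mTORC1. PSIP1 rose by 0.24 (SE 0.0596, adjusted p = 0.0465), with -0.17 at T1 and 0.65 at T2. RHEB fell by 0.18 (SE 0.0455, adjusted p = 0.0441), with 0.13 at T1 (unadjusted p = 0.0641) and -0.50 at T2 (unadjusted p = 3.42e-07). At T2 its groups did not overlap, and at T1 all 8 prednisolone animals lay above the control mean. BTG3 fell by 0.32, with 0.14 at T1 and -0.78 at T2, WDR77 by 0.33, with 0.11 at T1 and -0.78 at T2, URGCP by 0.32, with 0.14 at T1 and -0.78 at T2, and UIMC1 by 0.27, with 0.099 at T1 and -0.65 at T2. Adjusted p-values of these 4 lay between 0.0413 and 0.0441. For all 8 genes the differences at the 2 times were unequal, at adjusted p-values of 0.000234 to 0.00775. With 1 animal left out the highest adjusted p on animal means was 0.0855 for PSIP1 and 0.0792 for WDR77 without control animal 22, 0.0838 for URGCP without control animal 23, 0.0838 for RHEB without control animal 24, 0.0872 for BTG3 without prednisolone animal 29, and 0.0809 for UIMC1 without prednisolone animal 30.

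**Figure D3:**
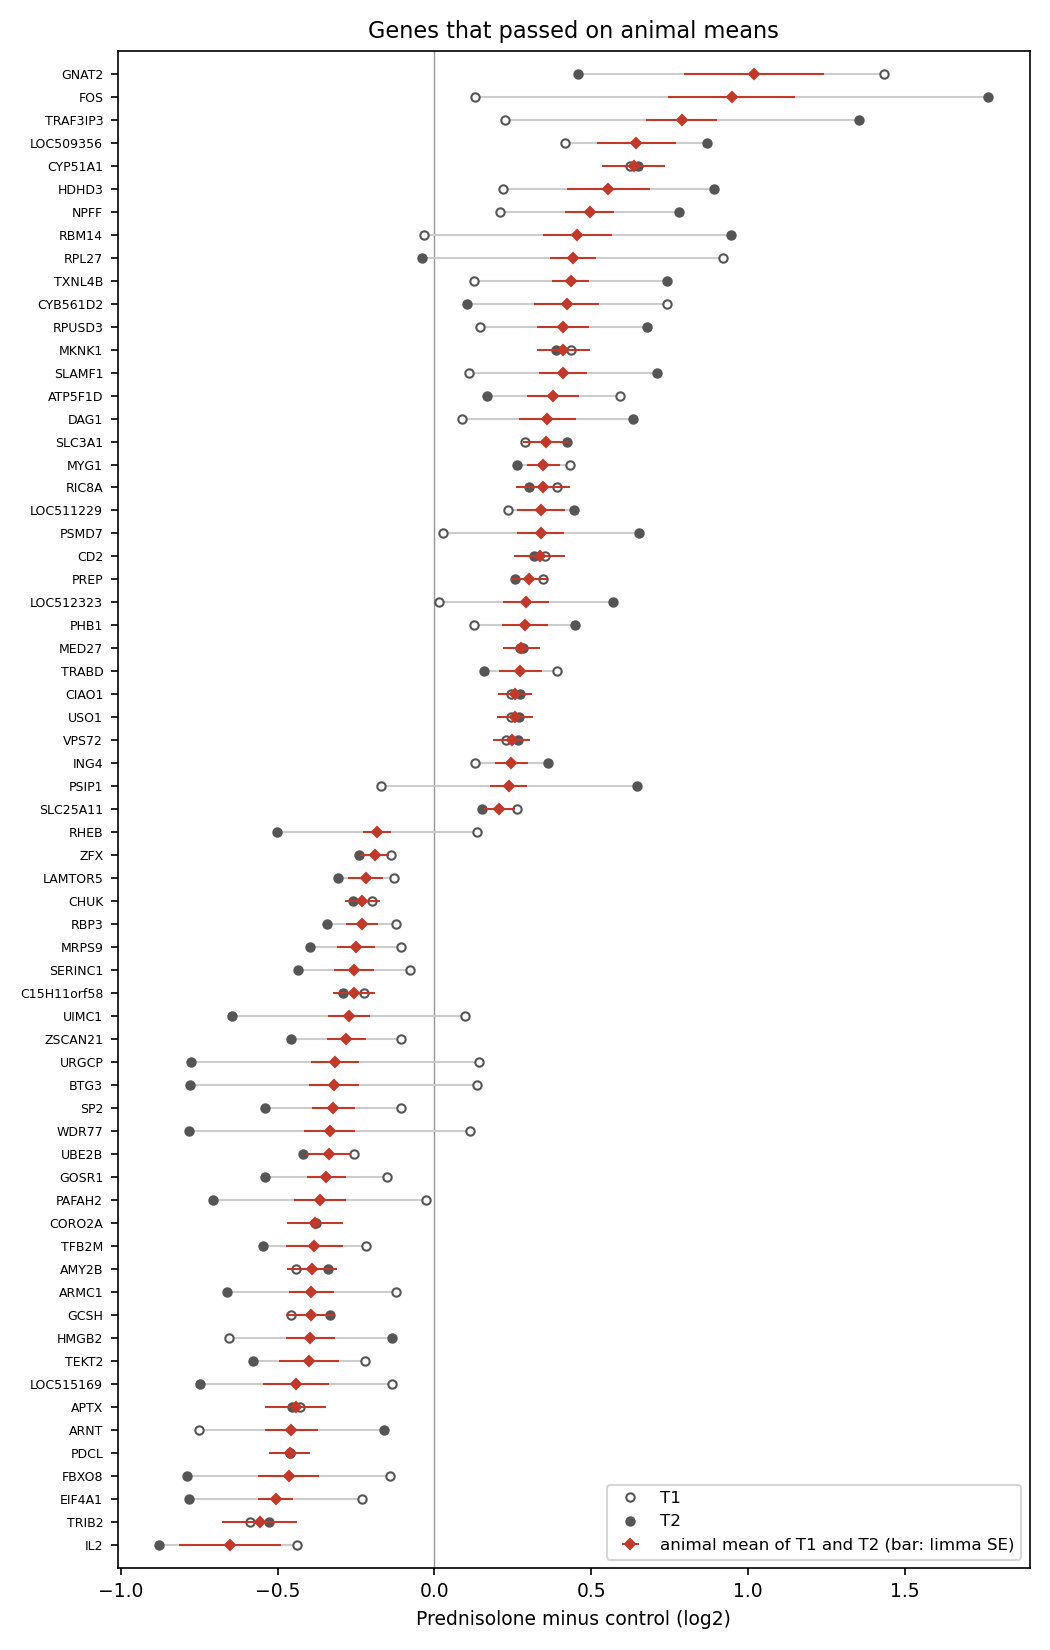
The 65 genes that passed on animal means, 1 per row, with the prednisolone minus control difference (log2 intensity, x axis) at T1 (open circle), at T2 (filled circle) and on animal means (red diamond, bar: limma's SE). Diamonds run between -0.65 for IL2 and 1.02 for GNAT2, and long grey lines mark genes such as FOS and RPL27 in which 1 time carried the mean.

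A further 28 genes had the same sign and an unadjusted p under 0.05 at both times without passing on animal means, at adjusted p-values of 0.0522 to 0.167. The genes with the largest smaller-of-the-2-times difference among all 50 were named by rule, and 5 of those did not pass. CEBPD, a transcription factor that glucocorticoids and inflammation induce, lay between 9.76 and 10.89 (median 10.16) in the prednisolone animals, against 9.18 and 10.11 (median 9.68) in the controls. All 8 prednisolone animals were above the control mean, though the ranges overlapped. Its difference was 0.69 (SE 0.195, adjusted p = 0.0712), with 0.60 at T1 (unadjusted p = 0.0096) and 0.78 at T2 (unadjusted p = 0.00557). MSR1, the macrophage scavenger receptor, lay between 6.50 and 7.82 (median 7.16) in the prednisolone animals, against 5.88 and 7.27 (median 6.50) in the controls, a difference of 0.69 (adjusted p = 0.0864), with 0.87 at T1 and 0.50 at T2. SCIN, an actin-severing protein, differed by 0.63 (adjusted p = 0.0921), with 0.71 at T1 and 0.55 at T2. SEC16B, an organiser of endoplasmic reticulum exit sites, was very dim and lay between 3.39 and 5.04 (median 3.70) in the prednisolone animals (n = 5), against 3.85 and 5.85 (median 4.89) in the controls. Its difference was -0.97 (adjusted p = 0.165), with -1.06 at T1 and -0.93 at T2. RHEBL1, a relative of RHEB, differed by -0.45 (adjusted p = 0.0793), with -0.46 at T1 and -0.44 at T2. Chosen after their values were seen, the list members in this group were the sterol enzyme FDPS (0.34, adjusted p = 0.0727), the fatty acid oxidation subunit HADHA (0.35, adjusted p = 0.0574), the chaperone HSP90AA1 (0.40, adjusted p = 0.101), the respiratory complex subunits NDUFA2 (0.23, adjusted p = 0.128) and NDUFV3 (0.21, adjusted p = 0.0865), the TNF receptor TNFRSF1B (-0.35, adjusted p = 0.0589) and the apoptosis activator DIABLO (-0.20, adjusted p = 0.167).

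Genes with large opposite differences at the 2 times did not pass on animal means. SPP1, which encodes the secreted protein osteopontin, lay between 5.12 and 12.65 (median 9.01) in the prednisolone animals, against 3.10 and 6.23 (median 4.14) in the controls at T1. At T2 it lay between 1.33 and 2.37 (median 1.65) in the prednisolone animals (n = 6), against 1.57 and 7.98 (median 4.66) in the controls (n = 6), and the lowest of these values is the floor of the scale. Its differences were 4.34 at T1 (unadjusted p = 0.000212) and -3.21 at T2 (unadjusted p = 0.00221), and its mean difference was 0.70 with an adjusted p of 0.651. CCL2, a chemokine that draws monocytes, differed by 2.80 at T1 (unadjusted p = 0.0101) and -3.76 at T2 (unadjusted p = 0.00102), and by -0.27 on means (adjusted p = 0.868). At T2 only 5 prednisolone animals had a value for it, and these were the animals that entered its mean. CXCL5, a chemokine that draws neutrophils, lay between 10.21 and 15.27 (median 11.71) in the prednisolone animals, against 9.30 and 10.60 (median 10.02) in the controls at T1 and between 6.59 and 10.69 (median 7.73) in the prednisolone animals, against 8.20 and 11.86 (median 10.17) in the controls at T2. The prednisolone animals were mostly above the controls at T1 and mostly below them at T2, and the mean difference was 0.013 (adjusted p = 0.998). TLR5, the receptor for bacterial flagellin, had the reverse signs, with -1.22 at T1 (unadjusted p = 0.00301) and 1.21 at T2 (unadjusted p = 0.000986) and -0.11 on means (adjusted p = 0.868). The test of unequal differences passed for all 4, at adjusted p-values of 0.000156 to 0.00465.

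Of the glucocorticoid targets FKBP5, TSC22D3, DUSP1, PER1, ZBTB16 and KLF9 and the receptor NR3C1, 2 were tested. ZBTB16, a zinc finger transcription factor induced by glucocorticoids in human cells, was dim and lay between 4.75 and 6.19 (median 5.56) in the prednisolone animals, against 4.71 and 6.66 (median 5.70) in the controls. The groups overlapped fully, and its difference was -0.22 (SE 0.25, adjusted p = 0.681), with 0.19 at T1 and -0.64 at T2. NR3C1, the glucocorticoid receptor itself, lay between 11.87 and 12.33 (median 12.16) in the prednisolone animals, against 11.80 and 12.34 (median 12.04) in the controls. Its difference was 0.062 (SE 0.0862, adjusted p = 0.743), with -0.12 at T1 and 0.24 at T2. The other 5 are not analysed here.

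Gene lists are described by their counts, their median difference on animal means and the median over all genes tested, 0.043. Members named here that did not pass were chosen after their values were seen. Counts are to be read against the shares of all genes: 2.74% passed on animal means, 19.8% had an unadjusted p under 0.05 there, and 18.9% passed at T2 (11.2% higher, 7.75% lower). A positive difference on animal means was found for 60.3% of all genes, and the same sign at both times for 44.7%. Of 12 glucocorticoid-induced genes tested, 0 passed on animal means, 4 had an unadjusted p under 0.05 and the median was 0.19 (0.12 without animals 28 and 32). A positive difference was found for 7 of the 12 (58.3%). By time the median was 0.18 at T1 and -0.054 at T2, and 5 of the 12 had the same sign at both (41.7%, against 44.7% of all genes). At T2 4 of the 12 passed as higher and 1 as lower. Of 24 glucocorticoid-repressed inflammatory genes, IL2 alone passed, as lower, and 2 had an unadjusted p under 0.05. The median was -0.22, but -0.51 without animals 28 and 32 and -0.087 with quantile normalization over complete features. By time it was 0.015 at T1 and -0.47 at T2, and 10 of the 24 had the same sign at both (41.7%). Chemokines and TNF in this list did not pass and were split in sign. CCL5 differed by -0.62 (adjusted p = 0.211), TNF by -0.49 (adjusted p = 0.396) and CCL3 by -0.48 (adjusted p = 0.436). The other way, CCL8 differed by 0.79 (adjusted p = 0.496), CXCL2 by 0.53 (adjusted p = 0.608) and GRO1 by 0.41 (adjusted p = 0.632). Of the 24 genes, 8 had a positive difference. At T2 5 of the 24 passed as lower and 1 as higher, against 7.75% and 11.2% of all genes. All 4 immediate early genes tested had a positive difference, with a median of 0.52. FOS passed, while JUN (0.37, adjusted p = 0.0822), EGR1 (0.68, adjusted p = 0.0891) and ZFP36 (0.30, adjusted p = 0.0554) did not. All 4 passed at T2, and at T1 their median was -0.035. All 6 genes of the glucocorticoid receptor and its chaperones had a positive difference (median 0.22) and 0 passed by limma's test, while 4 had an unadjusted p under 0.05. Likewise 12 of 15 heat shock chaperones were positive (median 0.23), and 0 passed, with 7 at an unadjusted p under 0.05. HSP90AA1 and HSPA8 (0.22, adjusted p = 0.129) stand in both lists.

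Metabolic lists had few genes that passed. Of 6 cholesterol synthesis genes, CYP51A1 passed and 5 had a positive difference (median 0.13), with the reductase DHCR7 at 0.14 and HMGCS1, which starts the mevalonate pathway, at 0.11. Of 8 fatty acid oxidation genes 0 passed and 3 had an unadjusted p under 0.05 (median 0.15). Of 11 glycolysis genes 0 passed and 1 had such a p (median 0.087, and 0.011 and 0.022 with quantile normalization over all and over complete features). Of 71 oxidative phosphorylation genes, ATP5F1D passed as higher. Positive differences made up 59 of the 71 (83.1%), against 60.3% of all genes tested, with a median of 0.078. Of 43 ribosomal protein genes, RPL27 passed as higher and 38 were positive (88.4%, median 0.07). Under the other scalings the median was 0.039 to 0.063 for the respiratory list and 0.019 to 0.055 for the ribosomal list, against 0.002 to 0.028 for all genes. Of 20 mitochondrial ribosomal protein genes, MRPS9 passed as lower and the median was -0.076. Of 21 proteasome genes PSMD7 passed as higher (median 0.072, and 0.022 and 0.029 with quantile normalization over all and over complete features). The same sign at both times was found for 32 of the 43 ribosomal genes (74.4%) and 42 of the 71 oxidative phosphorylation genes (59.2%), against 44.7% of all genes. It was found for 9 of the 21 proteasome genes (42.9%) and 7 of the 20 mitochondrial ribosomal genes (35.0%). These shares are given for the main scaling alone.

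Among immune and growth lists, 22 translation genes had a median of 0.0028, which was -0.012 to -0.052 under the other scalings and -0.0044 without animals 28 and 32, and EIF4A1 was the 1 that passed. Of 11 NF-kB pathway genes TRAF3IP3 passed as higher and CHUK as lower (median 0.086, and 0.025 without animals 28 and 32). The inhibitor NFKBIA differed by 0.25 (adjusted p = 0.289) and the other kinase subunits IKBKB by 0.11 and IKBKG by 0.086, none passing. Of 10 T cell activation genes IL2 passed as lower (median -0.11, but 0.067 with quantile normalization over complete features and -0.17 without animals 28 and 32). Of the 10, 3 had a positive difference, and 4 had an unadjusted p under 0.05, against 19.8% of all genes. Among the 3 positive ones, IL2RA differed by 0.31 (adjusted p = 0.366) and CD69 by 0.46 (adjusted p = 0.168). At T2 3 of the 10 passed as lower and 1 as higher, against 7.75% and 11.2% of all genes. Of 13 cell cycle genes HMGB2 passed as lower (median -0.035, but 0.022 without animals 28 and 32 and -0.071 and -0.086 with quantile normalization over all and over complete features). The list's HMMR differed by 0.61 without passing (adjusted p = 0.0822). Of 11 interferon response genes 0 passed, 3 had an unadjusted p under 0.05 and 10 were positive (median 0.17, and 0.26 with quantile normalization over complete features), among them MX1 at 0.89 (adjusted p = 0.0613). Of 9 MHC class II genes 0 passed, 1 had such a p and 9 were positive (median 0.15, and 0.090 and 0.076 with quantile normalization over all and over complete features). The 5 apoptosis genes and the 9 housekeeping genes had 0 that passed, with 1 and 0 at an unadjusted p under 0.05, and medians of 1.6e-05 and 0.0074 that turned negative under the other scalings (-0.015 to -0.021, and -0.0074 to -0.017). Without animals 28 and 32 these medians were -0.029 and 0.027.

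**Figure D4:**
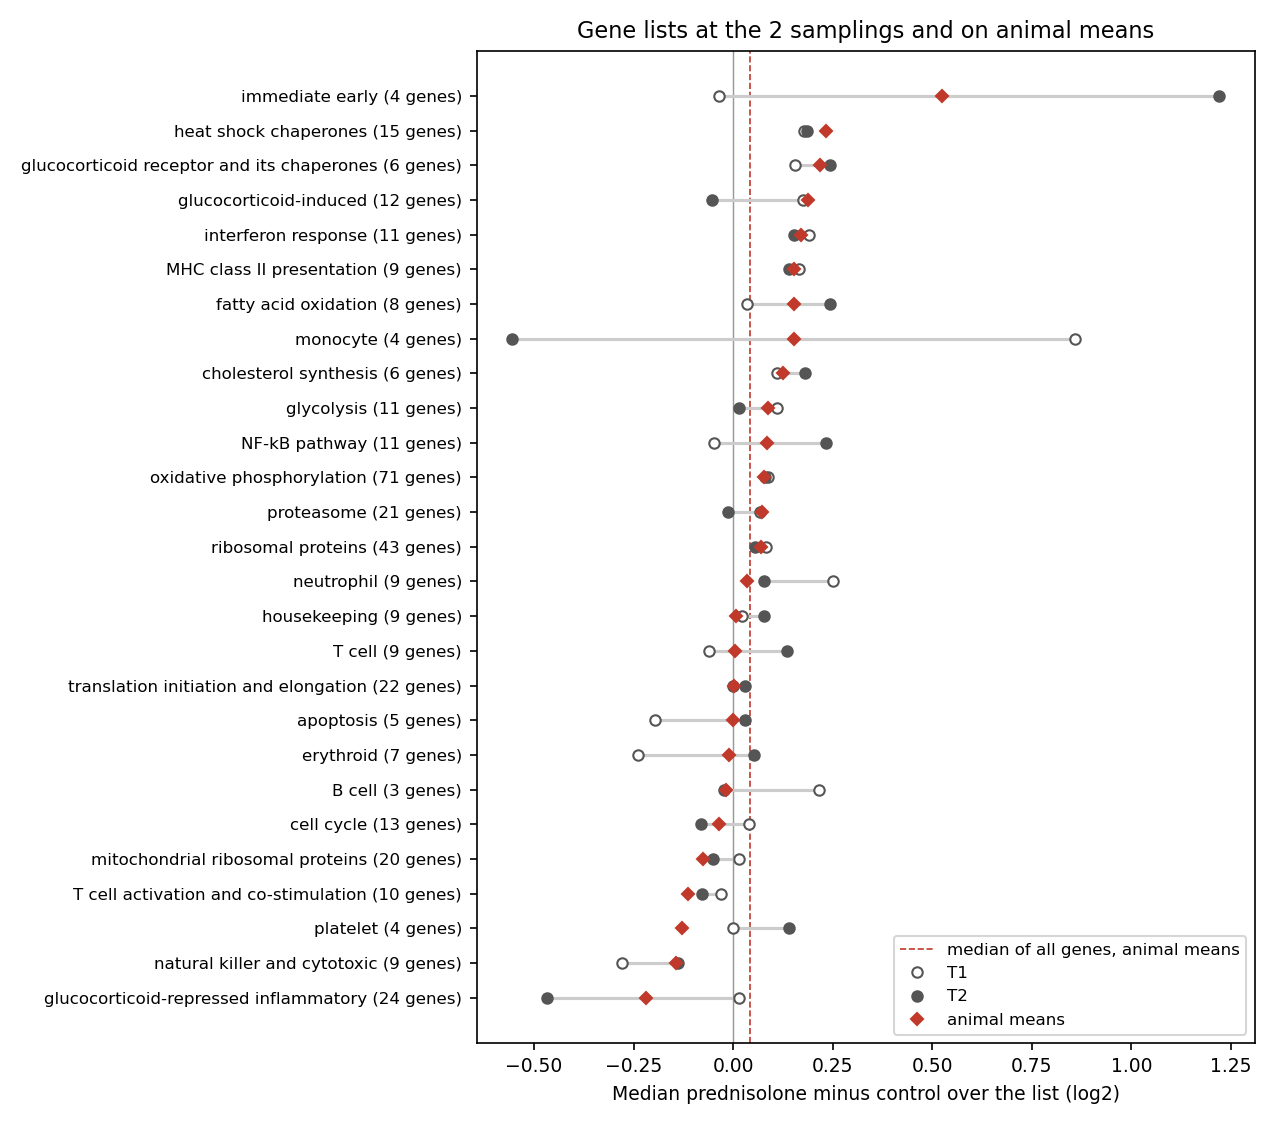
Median prednisolone minus control difference (log2 intensity, x axis) of each gene list with at least 3 genes tested, at T1 (open circle), at T2 (filled circle) and on animal means (red diamond); the dashed line is the median of all 2374 genes on animal means, 0.043. Immediate early genes and the monocyte list spread widest between the 2 times.

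Markers of cell types that the preparation could hold did not pass on animal means, apart from CD2. That was 0 of 3 B cell, 0 of 9 natural killer and cytotoxic, 0 of 4 monocyte, 0 of 9 neutrophil, 0 of 7 erythroid, 0 of 4 platelet, 0 of 2 plasma cell, 0 of 1 gamma-delta T cell and 0 of 1 dendritic cell markers, and 0 of these had an unadjusted p under 0.05. The 4 monocyte markers tested differed by a median of 0.86 at T1, -0.56 at T2 and 0.15 on means (0.085 without animals 28 and 32). CD14 and SPP1 had large opposite differences at the 2 times, and the other members did not share them. CTSB had a median of 14.98 in both groups at T1, and of 14.84 in the prednisolone animals against 14.90 in the controls at T2. ITGAM went the other way, with 5.23 against 5.33 at T1 and 5.85 against 5.41 at T2. CD14 lay between 13.33 and 15.61 (median 13.74) in the prednisolone animals at T1, against 12.06 and 13.40 (median 12.65) in the controls, and between 10.98 and 12.91 (median 11.41) at T2, against 12.02 and 13.77 (median 12.87) in the controls. On animal means CD14 lay between 12.36 and 14.25 in the prednisolone animals, against 12.17 and 12.93 in the controls, a difference of 0.16 (adjusted p = 0.763). The mean over the 9 T cell markers lay between 11.55 and 11.80 in the prednisolone animals, against 11.29 and 11.88 in the controls. HBB, the beta globin of red cells, lay between 15.99 and 18.21 in the prednisolone animals, against 15.36 and 18.37 in the controls. Several medians on animal means changed sign without animals 28 and 32: that of the erythroid list was -0.011, but 0.046 without them, that of the B cell list -0.018, but 0.14, that of the platelet list -0.13, but 0.044, and that of the neutrophil list 0.035, but -0.041. The natural killer list had a median of -0.14, and -0.068 without them, and 7 of its 9 genes had the same sign at both times (77.8%). With quantile normalization over all and over complete features the B cell median was -0.10 and 0.064, the erythroid one -0.054 and -0.046, the platelet one -0.15 and -0.33, and the neutrophil one -0.021 and -0.023. The T cell median was 0.0057, but -0.0091 to -0.024 under the other scalings. The part of these cell types in the differences above was not tested.

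The number of genes that passed on animal means moved with the setting. It lay between 44 and 93 for 9 of the 11 settings that keep all 15 animals, and the exceptions were quantile normalization over all features, with 17 genes, and no filter on intensity, with 37. Without scaling, 66 genes passed, 27 higher and 39 lower. A set of 9 genes passed under every setting in which it was fitted: CYP51A1, TRAF3IP3, RPL27, TXNL4B, RPUSD3, MYG1, EIF4A1, PDCL and GOSR1. CYP51A1, MYG1, EIF4A1 and PDCL are also among the 22 genes shared by both times.

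**Figure D5:**
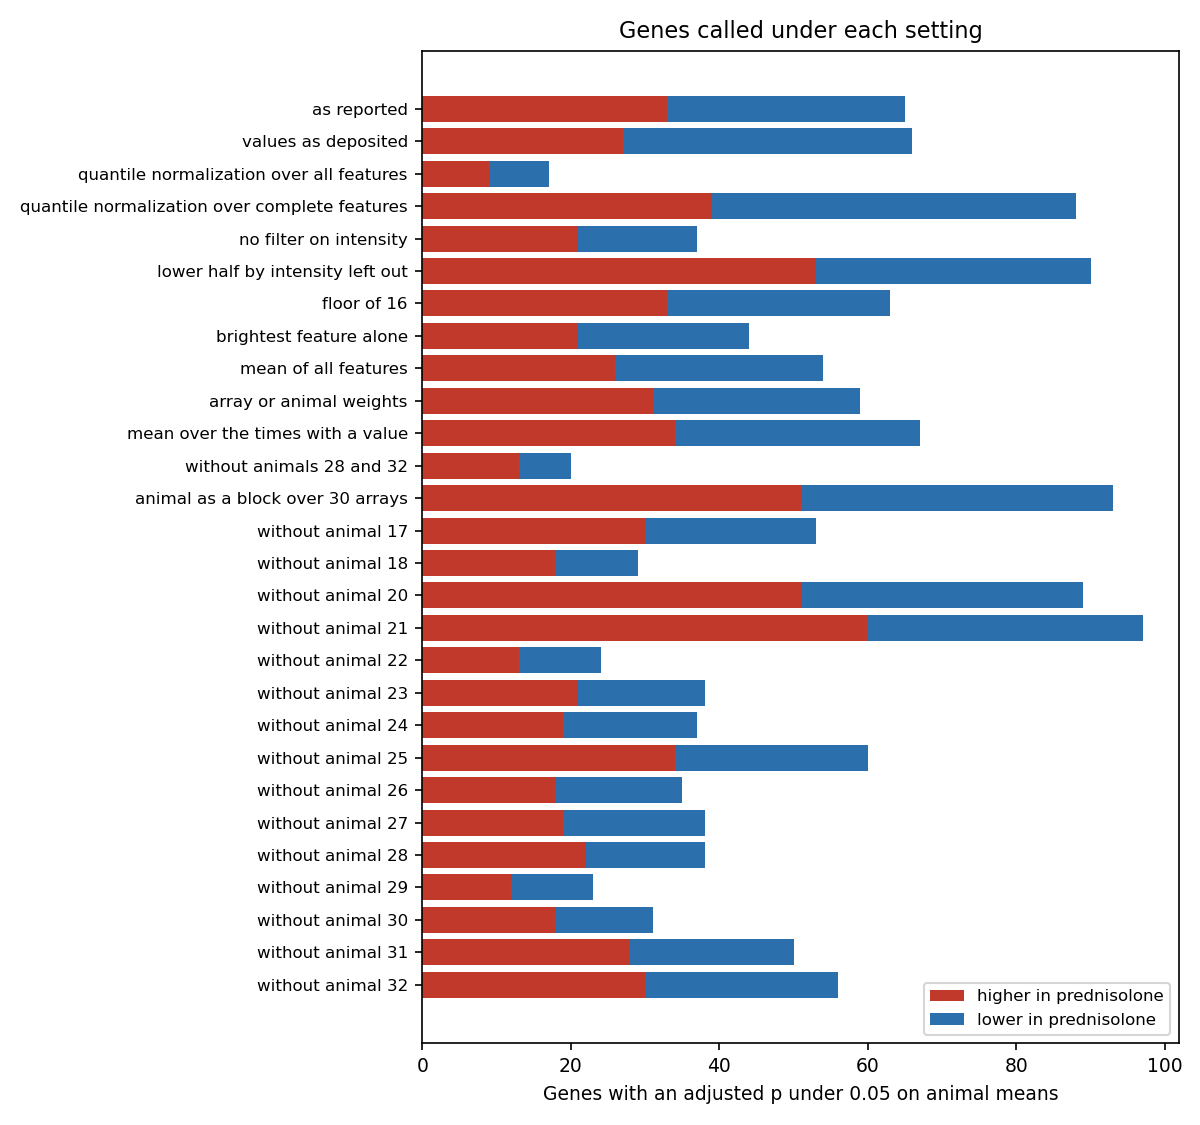
Number of genes (x axis) with an adjusted p under 0.05 on animal means under each setting, split into higher (red) and lower (blue) in the prednisolone animals. As reported there are 33 and 32; the bar is shortest with quantile normalization over all features, at 9 and 8, and longest without control animal 21, at 60 and 37.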

How the data were processed

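Lymphocyte RNA of 15 cattle at 2 times was measured on 1-colour Agilent arrays. The deposited values are linear intensities from 1.62 to 1067622, and 17.16% of the cells are empty. Per the series text the scanner images were read with Feature Extraction 9.5, and per the submitters' processing notes R 2.11.1 was used. How arrays were normalized, and which cells were emptied, is not given in the sources used here. Deposited array medians lay between 996.7 and 1040.

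Over the 23055 features complete on all arrays, arrays were brought to a common 75th percentile, then floored at 2.51 and put on the log2 scale. Names came from the platform annotation updated through RefSeq: 6954 features have 1 gene name. For a gene with several features, those within 0.25 log2 of the brightest were averaged. Genes in the lowest 25% by intensity, or with fewer than 4 arrays in a group or 4 animals with both times in a treatment, were left out. limma 3.58.1 in R 4.3.3 (lmFit, eBayes, two-sided) was fitted on animal means, on T1, on T2 and on T2 minus T1, with Benjamini-Hochberg adjustment over 2374 genes and a threshold of 0.05. Tables and figures used Python 3.11.15, numpy 2.4.6, pandas 2.3.3 and matplotlib 3.10.9.

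The animal number in the title pairs T1 with T2: correlations of an animal's deviations lay between 0.219 and 0.698 over 2181 genes. On simulated data for the animal means, 73% of changes of 0.5 and 94% of changes of 1 on the log2 scale were recovered. The noise was drawn independently for each gene, without the variation that genes share on the real arrays, so these rates need not hold there. In these data 10 calls were wrong. Recovery of changes under 0.5 was not tested, and the median size of the called differences was 0.36. Named genes were every gene that passed on animal means, with full values for the 8 largest rises and falls and for those with the same sign and an unadjusted p under 0.05 at both times. They also were the 5 largest shared differences in each direction, the 4 genes with the largest opposite differences, list members that passed, and known glucocorticoid targets. The members and gene lists were chosen with earlier results of these data known. The closing section gives the alternatives tried.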

Additional observations from a re-analysis of the deposited data

Results flagged for a closer look

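The treatment difference (prednisolone minus control) at T2 differed from that at T1 by limma's test of each animal's T2 minus T1, adjusted over 2374 genes, in 35 of the named genes. Values are the difference at T2 minus that at T1 on the log2 scale. Among 4 genes chosen for opposite differences they were -7.82 for SPP1, -6.98 for CCL2, -3.76 for CXCL5 and 2.63 for TLR5, at adjusted p-values of 0.000156 to 0.00465. For the glucocorticoid target ZBTB16 the value was -0.83 (adjusted p = 0.0342).

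Positive values among the genes that passed on animal means were 1.64 for FOS, 1.13 for TRAF3IP3, 0.98 for RBM14, 0.82 for PSIP1, 0.67 for HDHD3, 0.63 for PSMD7, 0.61 for TXNL4B, 0.60 for SLAMF1, 0.59 for ARNT, 0.57 for NPFF, 0.55 for LOC512323, 0.54 for RPUSD3, 0.52 for HMGB2, 0.45 for LOC509356 and 0.32 for PHB1, at adjusted p-values of 0.000156 to 0.048. FOS is an immediate early gene, TRAF3IP3 a lymphocyte adaptor and SLAMF1 a lymphocyte receptor. Negative values were -1.15 for GNAT2, -0.96 for RPL27, -0.92 for URGCP, -0.92 for BTG3, -0.90 for WDR77, -0.74 for UIMC1, -0.68 for PAFAH2, -0.65 for FBXO8, -0.64 for RHEB, -0.61 for LOC515169, -0.55 for EIF4A1, -0.54 for ARMC1, -0.39 for GOSR1, -0.36 for SERINC1 and -0.35 for ZSCAN21, at adjusted p-values of 0.000234 to 0.049976. EIF4A1 is a translation helicase, and RHEB activates mTORC1.

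In 11 of 152 groups of animal means tested, 1 animal lay far from the others of its group by Dixon's criterion, which chance meets in about 1 in 20 groups. GNAT2 was 4.01 in prednisolone animal 30, against 4.71 to 5.06 in the other prednisolone animals. LOC509356 was 5.87 in control animal 17, against 6.48 to 6.57 in the other control animals. TXNL4B was 9.81 in prednisolone animal 31, against 10.04 to 10.25 in the other prednisolone animals. MKNK1 was 11.37 in prednisolone animal 26, against 11.58 to 11.76 in the other prednisolone animals. TRABD was 10.64 in prednisolone animal 29, against 10.24 to 10.43 in the other prednisolone animals. CIAO1 was 9.81 in control animal 23, against 9.51 to 9.63 in the other control animals. PSIP1 was 11.90 in prednisolone animal 32, against 12.07 to 12.18 in the other prednisolone animals. ARMC1 was 11.19 in control animal 20, against 11.39 to 11.50 in the other control animals. RHEB was 11.85 in prednisolone animal 32, against 11.69 to 11.75 in the other prednisolone animals. SEC16B was 5.04 in prednisolone animal 27, against 3.39 to 3.87 in the other prednisolone animals. TLR5 was 5.71 in prednisolone animal 25, against 4.15 to 4.76 in the other prednisolone animals.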

How the results depend on the processing

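On animal means 65 genes passed; the count was 17 with quantile normalization over all features, 37 with no filter on intensity, 20 without animals 28 and 32, and 23 to 97 with 1 animal left out. At T1 8 passed; the count was 114 (15 higher, 99 lower) and 37 (20 higher, 17 lower) with quantile normalization over all and over complete features, 2 with no filter, 44 with the dimmer genes left out, 5 with the brightest feature alone, 73 with array weights, 0 without animals 28 and 32 (346 at an unadjusted p under 0.05 in limma), and 0 to 110 with 1 animal left out. At T2, 449 passed, and 327 to 480 with 1 animal left out. Unequal differences were found for 621 genes, and for 389 without animals 28 and 32. Quantile normalization over all features moved the median of all genes at T1 to -0.088, against 0.032, and split the unequal differences into 491 higher and 125 lower. Genes shared by both times were 28 higher, against 12 and 18 with quantile normalization over all and over complete features, and 22 lower, against 11 without animals 28 and 32 and 12 to 24 with 1 animal left out. With the animal as a random block over both times, 93 genes passed on animal means (55 of the 65 among them), 235 at T1 and 372 at T2. Each animal had a single treatment, so this block does not pair treated with control values. The block fit takes each gene's spread from both times, so its T1 count does not rest on the T1 arrays alone. Without scaling 66 passed (27 higher, 39 lower), and with quantile normalization over complete features 88 (39 higher, 49 lower). ZBTB16 reversed to 0.019 with the brightest feature alone. The causes were not tested. Of 1733 values of the 65 genes under 27 settings, 1143 stayed past the threshold and 590 did not, with 0 reversed. The genes were picked on these same arrays, so the lack of reversals adds no support. Dim genes such as GNAT2, IL2 and SEC16B lacked values in some animals, and the number of animals limits the precision.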

Other observations

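Features of the array without a single gene name were fitted in the same way, as a description added after the data were seen. Of 23635 such features, 911 passed on animal means (3.85%), and 385 of them were higher in the prednisolone animals. At T1 296 passed as higher and 174 as lower (1.99%), and at T2 2785 and 2144 (20.9%). The same sign at both times was found for 44.3% of them. With an unadjusted p under 0.05 at both times, 198 were higher at both, 299 were lower at both and 1197 had opposite signs. Several features can belong to the same transcript, so these are counts of features and not of genes.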
